A study of Mus musculus with 7 samples.

Results

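The 6099 regions described here are the open chromatin regions of mouse β cells that the deposited annotation calls intergenic and places under 10 kb from the nearest transcription start site (TSS). They were taken from a table of 61288 regions by annotation class and distance alone, with no measured value in the rule, and make up 9.95% of that table and 30.9% of its intergenic regions. The study sorted Tomato-positive β cells from islets of male mice and profiled their nuclei by bulk ATAC-seq, in which the transposase Tn5 inserts sequencing adapters into open DNA, giving 4 Control libraries and 3 Chd3/4Δβ libraries. All mice of both groups carried the MIP-CreERT transgene, a tamoxifen-inducible Cre driven by the mouse Ins1 promoter, and the R26 LSL-tdTomato lineage reporter. Every animal received tamoxifen by oral gavage, 10 doses over 2 weeks from 4 weeks of age, and was studied 4 weeks after the last dose, at 10 weeks of age. Control mice were Chd3+/+;Chd4+/+, and Chd3/4Δβ mice were Chd3 fl/fl;Chd4 fl/fl, so that both genes were deleted in β cells in which Cre was active. Sorting on Tomato selects cells with Cre activity and does not itself show the loss of either protein in each cell. No label states that each library is a different animal, and p-values therefore cover only library-to-library spread, which may be technical. Every one of the 61288 regions was listed because the authors called it different between the groups, so each direction and p-value below holds for regions already selected on this contrast.

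CHD3 and CHD4 are ATPases that move nucleosomes, and each can serve as the motor of NuRD, a complex that joins nucleosome remodelling to histone deacetylation and so also removes acetyl groups from histones. NuRD is best known for limiting access to enhancers and promoters, although it is also bound at active ones, and in β cells CHD4 is known to interact with the transcription factor PDX1. Open regions a few kilobases from a gene start commonly hold enhancers, silencers, insulators or starts of transcripts missing from an annotation, and the nearest gene is a convenient label that need not be the gene a region acts on.

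The distance of a member from its TSS ran from 1002 to 9998 bases, and none lay within 1 kb of it. Upstream members numbered 4081 (66.9%) and downstream members 2018. The members were 179 to 4163 bases wide, with a median of 678 bases, and named 5032 distinct nearest genes. Of the members, 335 had no symbol, and 2639 were nearest a predicted gene with a symbol starting with Gm. The word intergenic holds for the deposited transcript set. In the RefSeq annotation of GRCm38.p6, the centres of 875 members (14.3%) lay inside a gene, and 106 members overlapped the 300-base window around a RefSeq TSS.

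The windows of 250 bases before to 50 bases after a RefSeq TSS lay whole inside 73 members, of which 31 were called higher in Chd3/4Δβ, 2 lower and 40 neither (calls are defined below). The sequences shown are the start windows in the members with the 4 largest gains and in both called losses. These were taken from members whose libraries did not overlap between the groups. The window in the member with the highest Control level among these 73 was added. All are windows whose DNA could be read from a reference table. Each is named by the RefSeq transcript whose start it holds, which need not be the nearest gene in the deposited table. They are RefSeq sequences of GRCm38.p6, printed 5′ to 3′ along the strand of the named transcript, with capitals at every match on either strand to CCAAT (the box bound by NF-Y), CAGCTG or CATATG (E-boxes of bHLH factors), TAATTA (homeodomain core), TGANTCA (AP-1), TGTTTAC (forkhead), TATAAA, found in some core promoters, and lastly the SP1 element GGGCGG.

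The 4 gains:
1110002O04Rik, chr1:35869698-35869997, plus strand: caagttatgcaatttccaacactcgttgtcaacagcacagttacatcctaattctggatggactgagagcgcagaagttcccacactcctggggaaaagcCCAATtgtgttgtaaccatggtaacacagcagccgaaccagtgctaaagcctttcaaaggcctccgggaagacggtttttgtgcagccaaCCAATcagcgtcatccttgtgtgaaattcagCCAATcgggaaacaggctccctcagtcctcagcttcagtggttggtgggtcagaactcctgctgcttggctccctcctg
Gm31712, chr13:50595552-50595851, minus strand: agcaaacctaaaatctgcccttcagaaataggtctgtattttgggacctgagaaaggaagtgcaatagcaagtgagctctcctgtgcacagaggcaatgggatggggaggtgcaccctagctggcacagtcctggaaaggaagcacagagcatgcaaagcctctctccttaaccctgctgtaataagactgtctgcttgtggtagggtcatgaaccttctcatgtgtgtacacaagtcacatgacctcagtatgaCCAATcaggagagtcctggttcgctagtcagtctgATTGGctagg
4930570E01Rik, chr7:137653984-137654283, minus strand: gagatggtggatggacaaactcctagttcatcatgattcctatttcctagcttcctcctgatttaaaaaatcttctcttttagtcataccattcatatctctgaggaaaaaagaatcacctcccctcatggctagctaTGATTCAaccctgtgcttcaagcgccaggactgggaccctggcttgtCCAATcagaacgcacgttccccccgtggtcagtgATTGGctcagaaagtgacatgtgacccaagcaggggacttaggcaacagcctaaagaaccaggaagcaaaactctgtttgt
Gm34118, chr3:89331092-89331391, minus strand: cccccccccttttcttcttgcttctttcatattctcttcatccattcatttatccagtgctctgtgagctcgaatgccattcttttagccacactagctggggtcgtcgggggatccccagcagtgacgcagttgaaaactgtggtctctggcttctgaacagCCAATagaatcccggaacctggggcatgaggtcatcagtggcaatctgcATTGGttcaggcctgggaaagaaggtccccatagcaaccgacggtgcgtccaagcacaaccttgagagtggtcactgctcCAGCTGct
The 2 losses:
Gm31880, chr3:98932472-98932771, minus strand: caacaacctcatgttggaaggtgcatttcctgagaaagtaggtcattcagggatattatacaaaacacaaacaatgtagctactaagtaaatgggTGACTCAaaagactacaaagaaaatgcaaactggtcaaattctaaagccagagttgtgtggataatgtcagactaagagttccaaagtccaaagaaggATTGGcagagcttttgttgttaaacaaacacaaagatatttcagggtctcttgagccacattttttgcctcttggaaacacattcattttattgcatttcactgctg
Gm33487, chr12:72432269-72432568, minus strand: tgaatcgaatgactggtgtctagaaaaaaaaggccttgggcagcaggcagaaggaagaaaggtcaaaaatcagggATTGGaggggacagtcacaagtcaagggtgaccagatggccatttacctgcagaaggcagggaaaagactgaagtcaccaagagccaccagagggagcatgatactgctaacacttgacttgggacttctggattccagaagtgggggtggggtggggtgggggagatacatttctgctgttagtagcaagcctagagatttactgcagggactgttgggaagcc
The highest Control level:
Rnase4, chr14:51090827-51091126, plus strand: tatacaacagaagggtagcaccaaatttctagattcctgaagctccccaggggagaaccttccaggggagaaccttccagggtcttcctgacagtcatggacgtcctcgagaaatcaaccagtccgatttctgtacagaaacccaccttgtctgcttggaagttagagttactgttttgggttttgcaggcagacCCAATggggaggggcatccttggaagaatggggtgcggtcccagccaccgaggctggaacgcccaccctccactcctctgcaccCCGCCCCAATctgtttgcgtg

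The window of the lncRNA 1110002O04Rik held 3 matches to CCAAT, and those of Gm31712, 4930570E01Rik and Gm34118 held 2 each. Each window of a loss held 1 match, and the Rnase4 window held 2, of which 1 shares letters with a match to GGGCGG. The motif CCAAT was added to the search after these sequences had been read. All the printed windows are among those counted next, including the gains, which held at least 2 matches each. Over the 73 windows, CCAAT occurred in 21 of the 31 in members called higher (67.7%), in both of those called lower and in 14 of the 40 in members called neither (35%), against 37.4% of all 32817 RefSeq windows of this length. At least 2 matches were found in 9 of the 31 (29.0%) and 4 of the 40 (10%), against 11.7% of all windows. Of the other motifs, CAGCTG occurred in 23.3% of the 73 windows and 16.3% of all windows, TGANTCA in 12.3% and 7.81%, TAATTA in 6.85% and 5.30%, TGTTTAC in 4.11% and 3.65%, GGGCGG in 26.0% and 35.6%, and TATAAA in 8.22% and 13.6%. CATATG was in none of the 73 and in 3.92% of all windows. These matches describe letters in the windows, and no test was made of them.

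Levels are given in CPM, the count in a region divided by the library size, as the deposited table scales it, listed in the order of replicates 1 to 4 for Control and 1 to 3 for Chd3/4Δβ. The member over the 1110002O04Rik start had 0.113, 1.90, 0.191 and 0.495 CPM in Control and 21.1, 19.1 and 17.8 CPM in Chd3/4Δβ. Control replicate 2 lay above the other Control libraries there, and every Chd3/4Δβ library lay above all 4. At the Gm31712 start the levels were 0.340, 0.163, 0.143 and 0.401 CPM in Control and 7.52, 7.72 and 8.55 CPM in Chd3/4Δβ, and at the 4930570E01Rik start they were 0.113, 0.380, 0.335 and 0.283 CPM in Control and 4.84, 4.95 and 2.70 CPM in Chd3/4Δβ. The Gm34118 member already held some signal in every Control library and had 1.42, 1.09, 1.2 and 0.943 CPM in Control and 11.9, 11.0 and 9.0 CPM in Chd3/4Δβ. These 4 starts were chosen among members whose groups did not overlap, so the agreement of the 3 Chd3/4Δβ libraries was part of the choice. Of the 4, all but the Gm34118 member passed 1 CPM in at least 3 libraries only in Chd3/4Δβ. The Gm31880 member lost accessibility, with 7.03, 8.74, 7.94 and 6.97 CPM in Control and 1.68, 1.72 and 4.33 CPM in Chd3/4Δβ, and the Gm33487 member had 0.624, 1.30, 1.48 and 1.2 CPM in Control and 0.50, 0.308 and 0.281 CPM in Chd3/4Δβ. The member over the start of Rnase4, a secreted ribonuclease gene, was wide open in both groups, with 106, 101, 100.1 and 145 CPM in Control and 78.0, 79.7 and 96.5 CPM in Chd3/4Δβ.

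The library sizes behind the CPM were 17.6 M to 42.4 M counts in Control and 17.8 M to 44.0 M in Chd3/4Δβ, and each group held shallow and deep libraries. Members took 5.94% to 6.35% of the counts in listed regions in Control and 7.23% to 7.36% in Chd3/4Δβ. Over the members, the Pearson r of log2 CPM was 0.955 to 0.959 for pairs of Control libraries, 0.961 for Chd3/4Δβ replicates 1 and 2, and 0.898 and 0.922 for the pairs with Chd3/4Δβ replicate 3. The labelled cell type was checked at marker genes over the whole table. Only regions called different are listed, so a marker with none may be open and unchanged, and the sums leave unchanged regions out. The check thus cannot show that a cell type is absent. All 8 β-cell markers had listed regions, with a summed level of 854 to 1058 CPM in Control and 434 to 691 CPM in Chd3/4Δβ. Regions were listed at 1 of 5 acinar markers (0.589 to 1.03 CPM in Control and 1.90 to 2.11 CPM in Chd3/4Δβ), and Cpa1, Prss1, Prss2 and Ptf1a had none. The sums ran from 16.2 to 19.5 CPM in Control and 25 to 30.2 CPM in Chd3/4Δβ over 4 α-cell markers, 14.4 to 16.1 against 48.1 to 54.7 CPM over 3 mesenchymal markers, 15.9 to 19.5 against 26.6 to 35.2 CPM over 3 ductal markers, 45.7 to 48.8 against 60.8 to 88.9 CPM over 3 endothelial markers, and 11.6 to 13.9 against 13.1 to 16.8 CPM over 3 immune markers, 2 of them listed. Sst was the listed marker of 2 for δ cells, with 2.00 to 3.49 against 4.05 to 8.21 CPM. In bulk libraries, more cells of another type and more open chromatin in the same cells cannot be told apart, and the part of other cell types in the gains was not tested.

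Accessibility rose more often than it fell at these sites in Chd3/4Δβ. Of the 6099 members, 2778 (45.5%) were higher in Chd3/4Δβ and 1045 (17.1%) were lower, where a call needs a change of at least 2-fold in either direction and an adjusted p under 0.05 (edgeR quasi-likelihood test, Benjamini-Hochberg). Over all listed regions the shares were 37.0% higher and 20.4% lower. On the adjusted p alone, 3689 members were higher and 2253 lower, against 52.6% and 44.9% of all listed regions. Of the calls that include the fold threshold, 72.7% at members were higher, against 64.5% over all listed regions, 71.7% at the 12276 intergenic regions 10 to 100 kb from a TSS and 71.2% at the 6643 promoters. The median log2 fold change over the members was 0.85, against 0.56 over all listed regions, 0.92 at the more distant intergenic regions and -0.31 at promoters. The scaling of the libraries shifted this balance. TMM, RLE and cyclic loess lowered the median of all listed regions by 0.21, 0.31 and 0.42 on the log2 scale, and the share of member calls that were higher became 62.6%, 57.9% and 57.4%, against 53.1%, 48.0% and 47.2% over all listed regions.

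**Figure D1:**
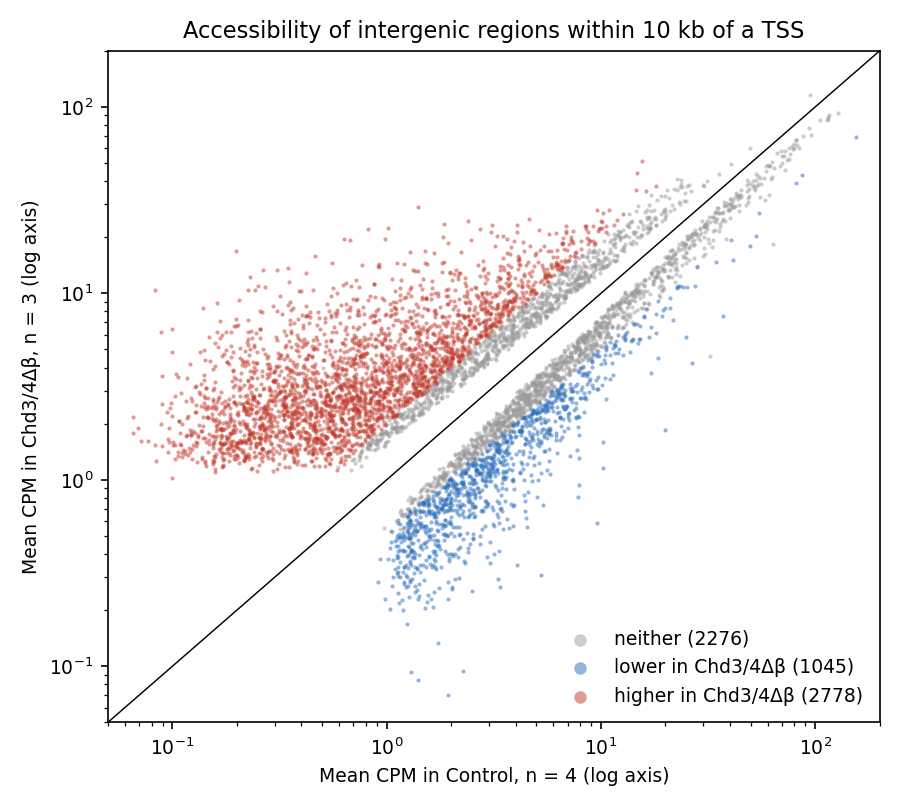
Each point is 1 of the 6099 members, with the mean CPM of the 4 Control libraries on the x axis and of the 3 Chd3/4Δβ libraries on the y axis, both on log axes, coloured by call; the line marks equal levels. The 2778 gains spread leftwards to Control levels under 0.1 CPM, the 1045 losses lie in a narrower band, and few members lie close to the line, since the table lists called regions only.

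Called gains spanned larger folds than called losses, most of all where Control had few reads. At members called higher, the median level was 0.685 CPM in Control and 3.34 CPM in Chd3/4Δβ, with a median log2 fold change of 2.18, and 1551 of the 2778 (55.8%) changed at least 4-fold and 725 (26.1%) at least 8-fold, against 48.4% and 19.8% of the gains over all listed regions. At members called lower, the medians were 2.93 and 1.02 CPM, with a log2 fold change of -1.45, and 186 of 1045 (17.8%) changed at least 4-fold and 28 at least 8-fold, against 14.1% at 4-fold over all listed regions. The groups did not overlap in CPM at 2721 of the gains and 980 of the losses. Over all 6099 members the Chd3/4Δβ libraries all lay above the Control libraries at 3475 and all below at 1958, and the same separation held at 49.3% and 38.8% of all listed regions. The 2276 members with no call had medians of 5.22 and 5.08 CPM, so they were the more open sites, with smaller changes.

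The listing required a CPM above 1 in at least 3 libraries, and many members met it through 1 group. In 1915 members at least 3 libraries of Chd3/4Δβ, but not of Control, passed 1 CPM, and 1848 of these were called higher. In 843 only Control did so, and 678 of these were called lower. Of the 1915, 67 had no call and 0 were called lower, and of the 843, 163 had no call and 2 were called higher. The route into the listing thus largely set the direction of such members but did not force a call. Among the 3313 members over 1 CPM in at least 3 libraries of each group, 916 (27.6%) were higher and 367 (11.1%) lower, against 23.7% and 11.6% of the 35881 listed regions of the same kind, with a median log2 fold change of 0.52. Of these 916 gains 178 (19.4%) reached 4-fold and 22 reached 8-fold, and of the 367 losses 11 (3.00%) and none, close to the 17.8% and 2.62% at 4-fold among the listed regions of the same kind. This restriction was added after the data had been seen.

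The largest gains among the better covered members were at sites with almost no reads in Control. The greatest was 5.4 kb upstream of Pasd1 on the X chromosome (chrX:71915296-71915756), a gene whose human counterpart represses the circadian clock, with 0.0567, 0.109, 0.143 and 0.0236 CPM in Control and 9.74, 10.9 and 10.7 CPM in Chd3/4Δβ. Its 4 Control values rest on 7 reads in all, so the log2 fold change of 7.10 ± 0.34 (SE, adjusted p = 8.3e-13) has a poorly known denominator. A site 9.1 kb upstream of the predicted gene Gm3131 (chr13:58536558-58537215) had 0.340, 0.217, 0.0956 and 0.141 CPM in Control and 19.6, 18.6 and 12.5 CPM in Chd3/4Δβ, a log2 fold change of 6.5 ± 0.29 (SE, adjusted p = 3.5e-13). Both were closed in every Control library and open in every Chd3/4Δβ library, but members with overlapping groups were left out of this ranking. Both sites could be listed only through Chd3/4Δβ. Mmp25, which encodes a membrane-bound matrix metalloproteinase, had a member 6.9 kb upstream with 0.227, 0.0543, 0.0956 and 0.0236 CPM in Control and 7.20, 8.01 and 4.11 CPM in Chd3/4Δβ. The remaining sites in the top 8 were near Gm34474, Gm7569, Gm50380, Gm4335 and an unnamed transcript on chromosome 17, with log2 fold changes of 5.60 to 6.15 and mean Chd3/4Δβ levels of 6.19 to 13.3 CPM. Cyclic loess kept all 8 calls and gave smaller values, 3.61 to 5.70.

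The largest losses left a little signal behind. At an unnamed transcript on chromosome 1 (chr1:167343331-167344147) the levels were 8.0, 10.1, 10.2 and 9.90 CPM in Control and 0.182, 0.282 and 1.29 CPM in Chd3/4Δβ, a log2 fold change of -4.37 ± 0.41 (SE, adjusted p = 2.0e-07). Near Lars1, which encodes leucyl-tRNA synthetase, they were 6.81, 4.02, 4.83 and 5.47 CPM in Control and 0.250, 0.282 and 0.394 CPM in Chd3/4Δβ. All 3 Chd3/4Δβ libraries were far under the Control libraries at both sites, though members with overlapping groups were left out of this ranking too. Both sites were listed through Control alone. A member 4.9 kb upstream of Hsbp1, a regulator of the heat shock factor (chr8:119339335-119339928), had 6.92, 7.76, 9.13 and 7.40 CPM in Control and 0.659, 0.359 and 1.41 CPM in Chd3/4Δβ, and a member 7.1 kb downstream of the start of Exo5, a DNA exonuclease gene (chr4:120914420-120915511), had 9.42, 11.4, 10.3 and 9.83 CPM in Control and 0.931, 0.513 and 2.03 CPM in Chd3/4Δβ. At both, Chd3/4Δβ replicate 3 kept the highest level of its group. Members near Rbm39 (a splicing factor), Wipf1 (a regulator of actin), Gm2021 and Gm3372 fell by 3.29, 2.99, 3.40 and 2.73 on the log2 scale. How the authors treated reads that match several copies of a sequence, which matters for predicted genes with near copies, is not given in the sources used here.

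Sites that were most open in Control mostly differed less between the groups. The highest was 2.4 kb downstream of the start of Malat1, an abundant nuclear long noncoding RNA, with 169, 175, 162 and 117 CPM in Control and 41.1, 81.2 and 85.7 CPM in Chd3/4Δβ, and its log2 fold change was -1.17 ± 0.28 (SE, adjusted p = 0.0093). The call at Malat1 was lost without Chd3/4Δβ replicate 1 (-0.90), with a term for depth (-0.96) and under cyclic loess (-0.72). The members near Shf, Rnase12, Rnase4 and Kdm6b, with Control means of 113 to 127 CPM, had log2 fold changes of -0.46 to -0.36 and no call, and under cyclic loess their values were 0.13 at Kdm6b, a gene for a histone H3 demethylase, and 0.06 to 0.12 at the others.

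**Figure D2:**
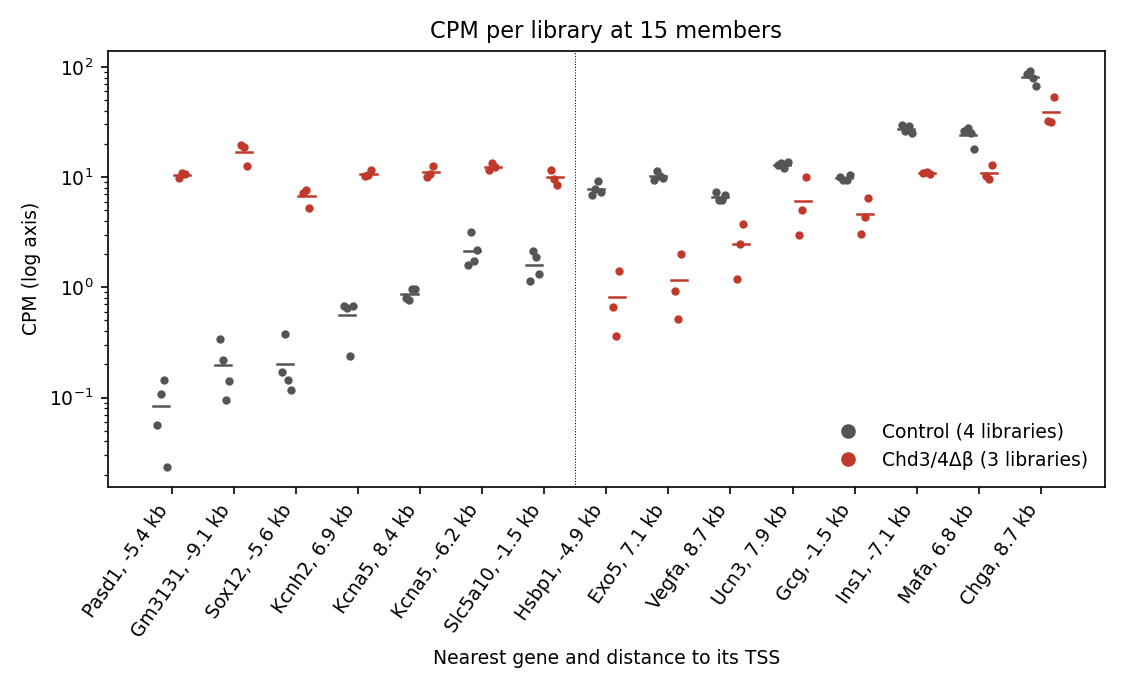
CPM on a log axis at 15 members, each named by its nearest gene and the distance to that TSS in kb; grey points are the 4 Control libraries, red points the 3 Chd3/4Δβ libraries, and short lines the group means. The 7 sites left of the dotted line rose and the 8 to its right fell, with no overlap between the groups at any of the 15. Most members have groups that do not overlap (57.0% with Chd3/4Δβ above and 32.1% with it below).

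The Chd3/4Δβ libraries differed in how far they lay from Control. The median CPM over the gained members was 3.55, 3.57 and 2.93 in Chd3/4Δβ replicates 1 to 3, against 0.651 to 0.737 in the Control libraries. Over the lost members it was 0.818, 0.924 and 1.29, against 2.73 to 2.96 in Control. Replicate 3 was the lowest of its group at 59.7% of the gained members and the highest at 69.0% of the lost members, whereas at members with no call it was lowest at 38.6% and highest at 39.6%. It was thus nearer to Control in both directions, and it was also the shallowest Chd3/4Δβ library. The part of depth in this was not tested. Without replicate 3, 2844 members were called higher and 1185 lower.

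**Figure D3:**
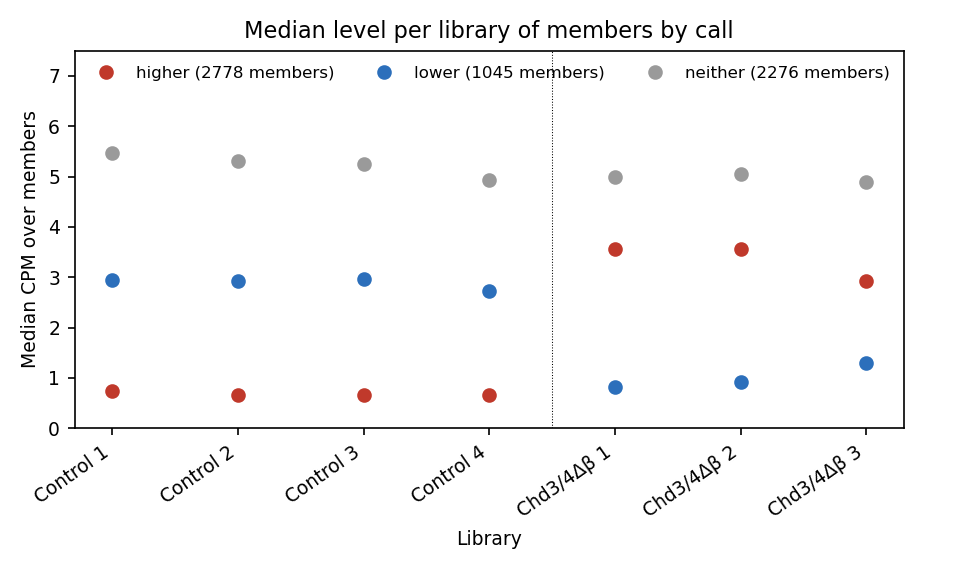
Median CPM over the members in each of the 7 libraries, with members grouped by call. Chd3/4Δβ replicate 3 has the lowest median of its group for gained members (2.93) and the highest for lost members (1.29), while the members with no call lie between 4.90 and 5.47 in every library.

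A few members changed in a single library. A level at least 4 times that of every other library in the group, and at least 2 CPM, was reached at 7 members by Chd3/4Δβ replicate 1, at 4 by replicate 3 and at none by replicate 2 or by a Control library. Near Mir142hg, the host transcript of a microRNA known from blood cells, the levels were 1.25, 0.380, 0.622 and 0.848 CPM in Control and 11.2, 1.62 and 0.900 CPM in Chd3/4Δβ. Near the predicted gene Gm13450 they were 1.13, 0.326, 0.191 and 0.377 CPM in Control and 10.2, 0.667 and 1.07 CPM in Chd3/4Δβ. Near Gm18637 replicate 1 instead stayed closest to Control, with 31.9, 30.3, 34.3 and 32.3 CPM in Control and 11.8, 0.872 and 1.13 CPM in Chd3/4Δβ. None of these 3 members was called, although each mean changed more than 4-fold, and they were chosen after their values had been seen. They were the only members past 4-fold that missed the adjusted p threshold.

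Distance from the TSS made little difference to the calls within these limits. Members at 1 to 2, 2 to 4, 4 to 6, 6 to 8 and 8 to 10 kb were called higher in 47.0%, 45.2%, 46.6%, 45.7% and 43.8% of cases and lower in 17.1%, 16.8%, 16.2%, 17.9% and 17.7%. Upstream members were higher in 46.2% and lower in 16.8%, and downstream members in 44.2% and 17.9%. The median Control level stayed between 1.99 and 2.18 CPM over the 5 distance classes. The 3 members nearest to the upper limit of 10 kb on the inside were at Gm6062, Gm45007 and Slc25a36, upstream of their TSS by 10.0 kb after rounding, with mean levels of 0.990 ± 0.165 to 5.24 ± 0.340 CPM, 8.07 ± 1.63 to 3.01 ± 0.912 CPM and 1.02 ± 0.576 to 4.33 ± 0.184 CPM (SD, n = 4 and 3). The 3 just outside it were at Snx10, Gm28497 and Eya3, 10001 to 10005 bases upstream, with 2.02 to 0.963, 0.210 to 4.01 and 1.09 to 1.92 CPM.

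**Figure D4:**
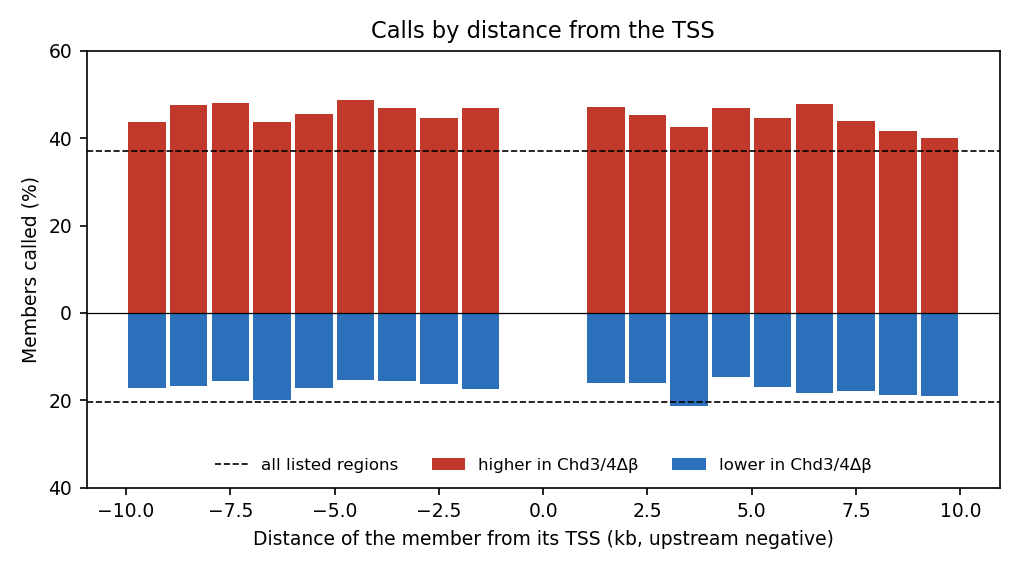
Share of members called higher (red, above 0) and lower (blue, below 0) in Chd3/4Δβ in bins of 1 kb, with the signed distance to the TSS on the x axis; dashed lines give the shares over all listed regions, 37.0% and 20.4%. Every bin is above the upper dashed line for gains, and no member lies within 1 kb of the TSS.

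The level in Control, which enters the fold change itself, went with the direction. Among the 1220 members with the lowest Control levels, up to 0.582 CPM, 1219 were called higher, and a member that low could be listed only through Chd3/4Δβ. Of 1219 members in the middle of the range, 1.47 to 3 CPM, 409 were higher and 385 lower. Of the 1220 with the highest levels, from 6.33 CPM, 63 were higher and 189 lower. Width followed the level. Of the 1222 narrowest members, up to 468 bases, 60.5% were higher and 21.7% lower, with a median Control level of 0.792 CPM, and of the 1216 widest, from 1057 bases, 25.7% and 13.2%, with 5.71 CPM. By type of nearest gene, 50.2% of 661 members near lncRNA genes were higher and 13.3% lower, against 44.4% and 18.1% of 2482 near protein-coding genes and 47.6% and 17.5% of 969 near pseudogenes. Across chromosomes the share called higher ran from 39.3% on chromosome 4 to 56.7% of 127 members on X, leaving aside 4 members on Y.

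Members near Ins1, Mafa and Ucn3, genes of the mature β cell, were lower, while others near genes of β-cell function were higher. A member 7.1 kb upstream of Ins1, an insulin gene, had 29.4, 26.0, 28.9 and 25.3 CPM in Control and 10.9, 11.1 and 10.7 CPM in Chd3/4Δβ, a log2 fold change of -1.32 ± 0.14 (SE, adjusted p = 4.3e-08). A member 6.9 kb from the start of Mafa, which encodes a β-cell maturity factor, had 25.9, 27.8, 25.1 and 18 CPM in Control and 10.2, 9.52 and 12.8 CPM in Chd3/4Δβ, a log2 fold change of -1.16 ± 0.17 (SE, adjusted p = 4.1e-06). At Ins1 and Mafa the groups were apart by more than the spread of either. Ucn3 encodes urocortin 3, a marker of mature β cells, and its member 7.9 kb from the TSS had 12.8, 13.3, 12 and 13.8 CPM in Control and 3.00, 5.00 and 10.1 CPM in Chd3/4Δβ, with replicate 3 near Control. The log2 fold change at Ucn3 was -1.16 ± 0.29 (SE, adjusted p = 0.0032), and without Chd3/4Δβ replicate 1 it was -0.82, short of the threshold. With a term for depth the value at Mafa was -0.95. Sites near Adcyap1r1, the receptor for the islet peptide PACAP (3.94 ± 0.893 to 10.2 ± 0.690 CPM), Cpe, a prohormone-processing enzyme (0.281 ± 0.208 to 1.64 ± 0.380 CPM), and Sytl4, a granule effector (0.185 ± 0.0959 to 1.76 ± 0.470 CPM), were higher. Those at Cpe and Sytl4 passed 1 CPM only in Chd3/4Δβ, so their direction was largely set by the listing. Their calls were lost under cyclic loess (0.37 and 0.55). Of 11 members in the list of β-cell maturity and function genes, 4 were higher and 2 lower, with a median log2 fold change of 0.85, beside 45.5% and 17.1% and the same 0.85 over all members, whereas TMM and RLE called 3 higher and 5 lower and cyclic loess 1 and 3. These members hold a small part of the open chromatin at these genes. Of the 114 listed regions there 21 were higher and 28 lower, with a median of -0.64.

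Granule and exocytosis genes had 6 members, of which 1 was lower and none higher (3 lower under TMM and 5 under RLE), with a median of -0.79. Of the 110 listed regions near these genes 29 were higher and 24 lower, with a median of -0.42. Over all members 45.5% were higher and 17.1% lower. All 3 members around Chga, which encodes the granule protein chromogranin A, lay below Control. The site 8.7 kb downstream of its start had 85.5, 92.6, 79.8 and 66.8 CPM in Control and 32.2, 31.7 and 53.1 CPM in Chd3/4Δβ, and those 3.4 and 8.4 kb upstream had 65.2, 62.0, 60.3 and 56.8 CPM in Control and 28.5, 29.4 and 42.8 CPM in Chd3/4Δβ and 11.6, 14.7, 12 and 13.1 CPM in Control and 6.68, 8.08 and 7.99 CPM in Chd3/4Δβ. No Chd3/4Δβ library reached the lowest Control library at any of the 3, as at 32.1% of all members. The log2 fold changes were -1.07 ± 0.16 (SE, adjusted p = 4.2e-05), -0.87 ± 0.13 (SE, adjusted p = 6.2e-06) and -0.76 ± 0.17 (SE, adjusted p = 5.2e-04), so that the first alone passed the fold threshold, and its value was -0.995 without Control replicate 2, -0.95 and -0.94 when replicate 1 or 2 of Chd3/4Δβ was left out, -0.87 with a depth term and -0.76 under cyclic loess. The site at 3.4 kb passed it without Chd3/4Δβ replicate 3 (-1.08), under TMM (-1.09) and under RLE (-1.17), and the site at 8.4 kb under RLE (-1.08). Islet transcription factors had 8 members, of which 1 was higher, near St18 (0.949 ± 0.431 to 5.38 ± 0.492 CPM), and 1 lower, near Mafa, with a median of -0.71, and TMM, RLE and cyclic loess called 3, 5 and 3 lower and 1 higher each. Over all 136 listed regions near these factors the balance was the reverse, with 52 higher, 13 lower and a median of 0.49. The genes listed as named lower or higher are those whose transcripts the study reports so in RNA-seq of sorted β cells. That is a different measure from accessibility. Of the 5 members near genes the study names as lower, namely Chga, Mafa and Ucn3, 3 were called lower and none higher. All 5 had every Chd3/4Δβ library below every Control library, as did 32.1% of all members. Those genes were chosen by the study on mice of the same genotypes, so this is not independent evidence of their direction.

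Members near genes of other islet cells went both ways. At Gcg, the glucagon gene of α cells, a site 1.5 kb upstream had 9.93, 9.50, 9.42 and 10.4 CPM in Control and 3.04, 4.34 and 6.47 CPM in Chd3/4Δβ, a log2 fold change of -1.13 ± 0.21 (SE, adjusted p = 1.3e-04) that was -0.89 without Chd3/4Δβ replicate 1. The other 3 members in the α-cell list, near Gc, Slc38a5 and Cpb2, rose from 0.640 ± 0.389 to 5.71 ± 1.0 CPM, 0.525 ± 0.131 to 2.90 ± 0.503 CPM and 0.865 ± 0.199 to 2.97 ± 0.779 CPM. At Sst, the somatostatin gene of δ cells, a site 2.5 kb from the TSS had 1.59, 1.74, 1.63 and 0.825 CPM in Control and 2.70, 3.85 and 2.03 CPM in Chd3/4Δβ, a log2 fold change of 1.05 ± 0.30 (SE, adjusted p = 0.0057) whose call was lost under TMM (0.84), RLE (0.73), cyclic loess (0.82) and without Control replicate 4 (0.81) or Chd3/4Δβ replicate 2 (0.77). In the list of δ, PP and ε cells, 3 of 5 members were higher and none lower, beside 45.5% and 17.1% over all members. Endocrine progenitor and Notch genes had 3 of 7 higher and 1 lower (1 and 1 under cyclic loess), with gains near Sox4 (0.617 ± 0.167 to 3.03 ± 0.693 CPM), Notch1 (0.463 ± 0.295 to 1.92 ± 0.786 CPM) and Rbpj, the Notch effector (0.801 ± 0.285 to 2.31 ± 0.198 CPM), of which Notch1 and Rbpj fell short of the threshold under cyclic loess (0.52 and 0.91). Of the gained sites named here, all but the one at Sst passed 1 CPM in at least 3 libraries only in Chd3/4Δβ. The listing thus largely set their direction. The summed marker levels of α and δ cells over the whole table, given above, moved the same way as most of these gains, and their part was not tested.

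The few members near genes that β cells normally keep off, the disallowed genes, showed no common direction. Of all 60 listed regions near these genes, 26 were higher and 7 lower, with a median log2 fold change of 0.89. Of the 8 members, 3 were higher and 2 lower, and their median of 0.23 turned to -0.09 under RLE and -0.003 under cyclic loess. A site 2.4 kb upstream of Ldha, which encodes lactate dehydrogenase A, had 1.76, 1.79, 2.30 and 2.12 CPM in Control and 4.97, 4.05 and 3.15 CPM in Chd3/4Δβ, a log2 fold change of 1.03 ± 0.24 (SE, adjusted p = 9.5e-04). Its call was lost under TMM (0.82), RLE (0.72), cyclic loess (0.89), a depth term (0.90) and without Control replicate 1 (0.98), Control replicate 2 (0.99) or replicate 1 of Chd3/4Δβ (0.86). Near Hk1, a hexokinase gene, the weak site 1.2 kb upstream was lower, from 1.10 ± 0.290 to 0.332 ± 0.0865 CPM, a log2 fold change of -1.67 ± 0.36 (SE, adjusted p = 4.3e-04). The member near Igfbp4, an insulin-like growth factor binding protein gene, fell from 2.18 ± 0.333 to 0.296 ± 0.246 CPM. Slc5a10, a sugar transporter gene of the sodium-glucose family that the study names as higher, had 1.13, 2.12, 1.86 and 1.32 CPM in Control and 11.7, 9.67 and 8.55 CPM in Chd3/4Δβ at a site 1.5 kb upstream, a log2 fold change of 2.65 ± 0.23 (SE, adjusted p = 2.9e-09). Over the 9 members near genes the study names as higher, 6 were higher and 2 lower (45.5% and 17.1% over all members). Here too the genes were chosen by transcript level, on mice of the same genotypes.

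Potassium channel genes, which set the resting and firing behaviour of the β-cell membrane, had 22 members at 18 genes, of which 11 were higher and 4 lower, with a median log2 fold change of 0.98. These shares, 50.0% and 18.2%, lie close to the 45.5% and 17.1% over all members, and RLE called 10 higher and 6 lower. The gains at Kcna5 and Kcnh2 started from low Control levels. At Kcna5, a voltage-gated channel gene, the member 8.4 kb downstream of its start (chr6:126526375-126527576) had 0.794, 0.760, 0.956 and 0.966 CPM in Control and 10.1, 10.8 and 12.7 CPM in Chd3/4Δβ, and the member 6.2 kb upstream (chr6:126540912-126542303) had 1.59, 3.15, 1.72 and 2.17 CPM in Control and 11.6, 13.3 and 12.3 CPM in Chd3/4Δβ. The log2 fold changes were 3.65 ± 0.22 (SE, adjusted p = 1.3e-11) and 2.52 ± 0.21 (SE, adjusted p = 2.3e-09), and replicate 3 was as high as the other Chd3/4Δβ libraries at both. At Kcnh2, which encodes an ether-a-go-go related channel, a member 6.9 kb from the TSS had 0.681, 0.651, 0.239 and 0.683 CPM in Control and 10.2, 10.4 and 11.6 CPM in Chd3/4Δβ, a log2 fold change of 4.21 ± 0.26 (SE, adjusted p = 1.9e-11). Kcnh3, of the same family, rose from 0.157 ± 0.0869 to 3.10 ± 1.37 CPM. The losses included Kcnj6, an inward rectifier gene (8.76 ± 0.900 to 3.39 ± 0.347 CPM) and both members upstream of Kcng4, which encodes a modifier subunit (3.26 ± 0.358 to 0.768 ± 0.602 CPM and 3.60 ± 0.742 to 1.10 ± 0.555 CPM). Calcium and sodium channel genes had 5 of 9 members higher (55.6%, beside 45.5% over all members) and none lower. TMM called 5 higher and 2 lower, RLE 4 and 2 and cyclic loess 2 and 2, and the median of 1.24 was 0.01 under cyclic loess. The gains included Cacna1g, a T-type calcium channel gene (0.887 ± 0.373 to 5.13 ± 1.56 CPM), Cacna2d2, an auxiliary subunit (0.523 ± 0.313 to 2.34 ± 0.428 CPM), and the cation channel gene Trpm4 (0.170 ± 0.0518 to 1.39 ± 0.212 CPM). Under cyclic loess the value at Trpm4 was 0.01, with no call.

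**Figure D5:**
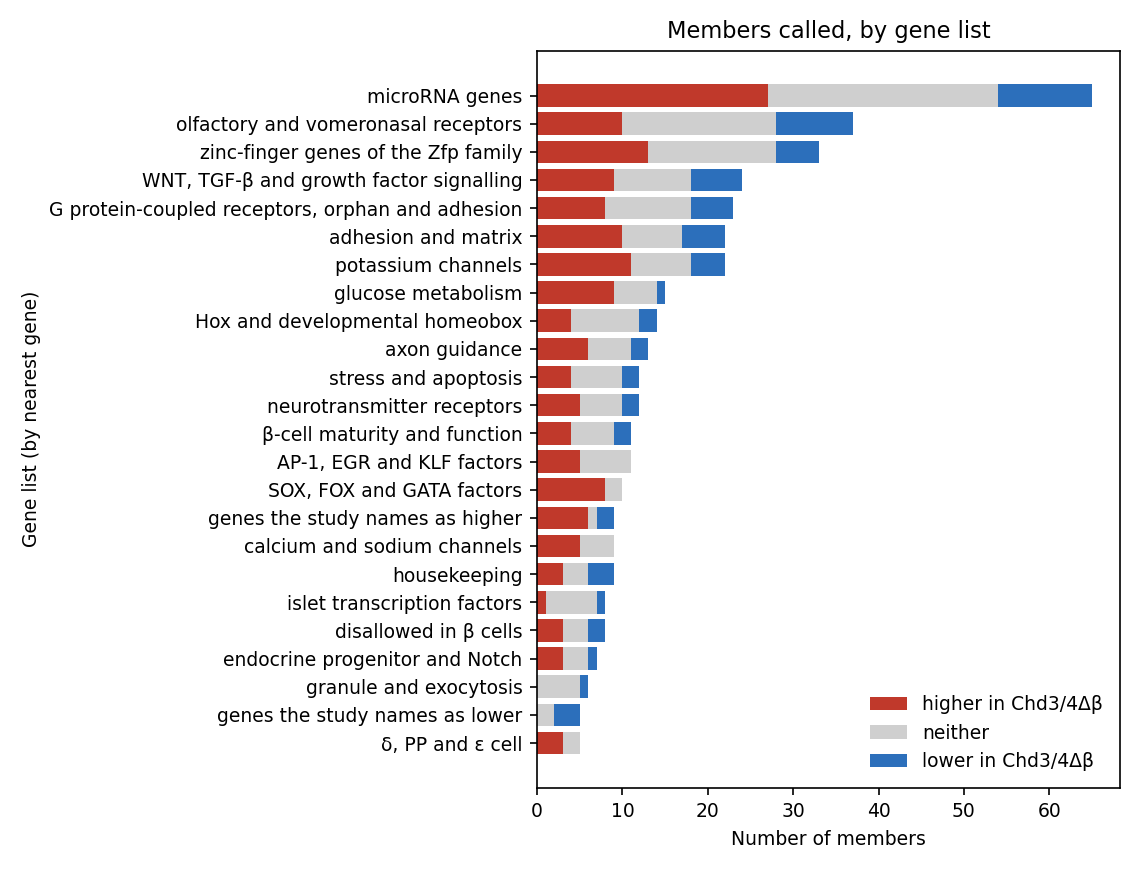
Number of members higher, lower and with no call for each list of nearest genes with at least 5 members, leaving out the list of predicted genes. The SOX, FOX and GATA list is mostly higher (8 of 10, but 5 under TMM and RLE and 6 under cyclic loess) and the list of genes the study names as lower has no gain, while most other lists hold both directions. Over all members 45.5% are higher and 17.1% lower.

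Genes of glucose metabolism had 15 members, 9 higher and 1 lower (45.5% and 17.1% over all members), with a median log2 fold change of 2.40. That median was 2.19 and 2.08 under TMM and RLE and 0.18 under cyclic loess, which called 7 members higher and 1 lower. The members do not stand for these genes as a whole. Of their 84 listed regions 30 were higher and 12 lower, with a median of -0.31. Me3, a mitochondrial malic enzyme gene, had a member 1.5 kb upstream with 1.19, 0.217, 0.430 and 1.06 CPM in Control and 6.59, 6.75 and 6.02 CPM in Chd3/4Δβ, a log2 fold change of 3.09 ± 0.32 (SE, adjusted p = 6.1e-08). Pygl, which encodes liver glycogen phosphorylase, had one 8.6 kb upstream with 0.284, 0.326, 0.239 and 0.259 CPM in Control and 3.57, 3.57 and 3.94 CPM in Chd3/4Δβ, a log2 fold change of 3.73 ± 0.31 (SE, adjusted p = 2.2e-09). Both sites passed 1 CPM in at least 3 libraries only in Chd3/4Δβ, so their direction was largely set by the listing. Eno1, the enolase gene, had opposite changes at neighbouring sites. Its member 3.2 kb downstream of the start was lower (4.79 ± 0.834 to 2.26 ± 0.296 CPM, log2 fold change -1.06) and the weak one at 5.6 kb higher (0.170 ± 0.0518 to 1.53 ± 0.463 CPM, log2 fold change 3.17), the first short of the threshold without Control replicate 1 (-0.94) or Chd3/4Δβ replicate 3 (-0.999) and the second under cyclic loess (0.18).

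SOX, FOX and GATA factors, regulators of development in many tissues, had 10 members, of which 8 were higher and none lower, with a median log2 fold change of 1.56. The largest gain was 5.6 kb upstream of Sox12, with 0.170, 0.380, 0.143 and 0.118 CPM in Control and 7.22, 7.67 and 5.29 CPM in Chd3/4Δβ, a log2 fold change of 5.16 ± 0.33 (SE, adjusted p = 4.3e-11). Foxk1, a forkhead factor of metabolic control, rose from 0.613 ± 0.184 to 2.80 ± 1.22 CPM. Sox12 and Foxk1 passed 1 CPM in at least 3 libraries only in Chd3/4Δβ, so the listing largely set their direction. TMM and RLE each left 5 gains and 1 loss in this list, and cyclic loess 6 and 1. Over all members 45.5% were higher and 17.1% lower. Of the 151 listed regions near SOX, FOX and GATA factors 67 were higher and 22 lower. AP-1, EGR and KLF genes, which respond fast to stimuli, had 5 of 11 higher (45.5%, as over all members) and none lower, led by Klf10 (1.16 ± 0.490 to 9.16 ± 0.389 CPM), Ier3 (0.607 ± 0.264 to 3.70 ± 2.24 CPM) and Egr3 (1.70 ± 0.0695 to 5.09 ± 1.35 CPM), and here TMM, RLE and cyclic loess gave 5, 3 and 4 gains and 1, 1 and no loss. Hox and other developmental homeobox genes had 4 of 14 higher and 2 lower. Gsx2 (1.2 ± 0.277 to 5.38 ± 2.89 CPM) and Tlx1 (0.730 ± 0.200 to 2.60 ± 0.772 CPM) were among the gains, and both losses were at Dlx3 (1.44 ± 0.318 to 0.319 ± 0.101 CPM and 2.26 ± 0.735 to 0.938 ± 0.523 CPM). The second Dlx3 loss was short of the threshold without Control replicate 1 (-0.95) or Chd3/4Δβ replicate 3 (-0.83). Meis3, a homeobox cofactor gene, rose from 0.0827 ± 0.0356 to 1.53 ± 0.539 CPM, with 0.16 and no call under cyclic loess. NuRD genes themselves had 3 members, none higher, and the loss near Mbd2, a methyl-DNA binding subunit, had groups that overlapped, with 5.16, 6.46, 4.73 and 3.94 CPM in Control and 2.07, 1.21 and 4.05 CPM in Chd3/4Δβ. Its log2 fold change of -1.12 was -0.77 without Chd3/4Δβ replicate 2, -0.97 without Control replicate 2 and -0.84 with a depth term.

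Signalling and adhesion genes had members in both directions. The WNT, TGF-β and growth factor list had 9 of 24 higher and 6 lower, against 4 and 6 under cyclic loess, where its median of 0.61 was -0.01. Vegfa, the angiogenic growth factor gene, had a member 8.7 kb from its TSS with 7.32, 6.13, 6.22 and 6.81 CPM in Control and 1.18, 2.46 and 3.77 CPM in Chd3/4Δβ, a log2 fold change of -1.49 ± 0.28 (SE, adjusted p = 1.1e-04), and Wnt5b, a WNT ligand gene, had 2.10, 1.95, 2.39 and 1.89 CPM in Control and 0.318, 0.436 and 0.450 CPM in Chd3/4Δβ at 9.3 kb upstream, a log2 fold change of -2.39 ± 0.33 (SE, adjusted p = 2.7e-06). Dkk3, which encodes a secreted dickkopf protein, rose instead, with 0.284, 0.326, 0.574 and 0.236 CPM in Control and 5.81, 4.18 and 3.21 CPM in Chd3/4Δβ, a log2 fold change of 3.69 ± 0.34 (SE, adjusted p = 7.1e-09). All 3 sites separated the groups, as did most members (57.0% with Chd3/4Δβ above and 32.1% with it below). Wnt5b passed 1 CPM only in Control and Dkk3 only in Chd3/4Δβ, so the listing largely set their direction. Orphan and adhesion receptors of the G protein-coupled class had 8 of 23 higher and 5 lower, with a median of -0.63, such as a decrease at Gpr37l1 (6.90 ± 0.501 to 2.42 ± 0.530 CPM) and an increase at Adgra2 (0.121 ± 0.0890 to 1.84 ± 0.789 CPM) that was 0.56, with no call, under cyclic loess. Cyclic loess called 2 of the 23 higher and 8 lower. Of the 196 listed regions near these receptor genes 75 were higher and 46 lower, with a median of 0.63. Adhesion and matrix genes had 10 of 22 higher (45.5%, as over all members) and 5 lower, which became 9 and 8 under RLE and 7 and 7 under cyclic loess. The integrin genes Itga9 (0.117 ± 0.0532 to 3.51 ± 0.287 CPM), Itgb2 (0.231 ± 0.103 to 5.03 ± 0.768 CPM) and Itga3 (0.458 ± 0.0984 to 5.04 ± 1.65 CPM) gained, and the contactin gene Cntn5 (21.8 ± 5.08 to 7.16 ± 4.20 CPM), the collagen gene Col6a4 (11.0 ± 2.06 to 4.69 ± 1.14 CPM) and the laminin gene Lamc3 (1.87 ± 0.483 to 0.513 ± 0.134 CPM) lost accessibility. Axon guidance genes had 6 of 13 higher (46.2%) and 2 lower, against 4 and 2 under cyclic loess. Neurotransmitter receptor genes had 5 of 12 higher (41.7%) and 2 lower, against 3 and 2 under TMM, 3 and 4 under RLE and 2 and 2 under cyclic loess. Both shares lie near the 45.5% over all members.

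Markers of cells outside the islet endocrine lineage gained at mostly weak sites. Acinar genes, which encode digestive enzymes, had 3 of 4 members higher, near Ctrb1 (0.881 ± 0.139 to 4.21 ± 0.519 CPM), Clps (0.188 ± 0.0493 to 1.48 ± 0.180 CPM) and Pnlip (0.757 ± 0.196 to 2.70 ± 0.488 CPM), with 0.16 and no call at Clps under cyclic loess. Over all members 45.5% were higher. These 3 acinar sites passed 1 CPM in at least 3 libraries only in Chd3/4Δβ, so the listing largely set their direction. The collagen genes Col1a1 (4.09 ± 0.727 to 15.8 ± 3.47 CPM) and Col1a2 (0.926 ± 0.261 to 3.26 ± 0.355 CPM) held both mesenchymal members and both were higher. Endothelial genes had 2 of 3 higher, Egfl7 (6.68 ± 0.770 to 19.7 ± 4.93 CPM) and Eng (0.453 ± 0.299 to 5.06 ± 2.19 CPM), and immune genes 1 of 2, near Lyz2 (0.531 ± 0.344 to 2.53 ± 0.338 CPM). The acinar, mesenchymal and endothelial marker sums given above were higher in Chd3/4Δβ as well, the immune sum overlapped between the groups, and their part was not tested. Housekeeping genes, which served as a control list, had 3 of 9 members higher and 3 lower (1 and 3 under cyclic loess), and none of the 4 members near liver and gut genes was called.

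Stress and apoptosis genes had 4 of 12 members higher and 2 lower, with a median of -0.46, and cyclic loess called none higher and 3 lower. Nupr1, a stress-induced chromatin protein gene, had 23.4, 19.8, 24.2 and 16.6 CPM in Control and 7.93, 6.18 and 14.1 CPM in Chd3/4Δβ, a log2 fold change of -1.18 ± 0.22 (SE, adjusted p = 2.1e-04), short of the threshold at -0.95 without Chd3/4Δβ replicate 2 and -0.94 with a depth term. Atf5, a transcription factor gene of the stress response in β cells, fell from 2.29 ± 0.555 to 0.730 ± 0.337 CPM. Trp53, the gene for p53, rose from 0.173 ± 0.115 to 1.55 ± 0.374 CPM, though with 0.25 and no call under cyclic loess. Of 65 members nearest a microRNA gene, 27 were higher (41.5%) and 11 lower (16.9%), close to the shares over all members, and RLE called 25 and 22. Mir146, known from inflammatory signalling, had 0.113, 0.217, 0.191 and 0.353 CPM in Control and 3.09, 3.28 and 2.08 CPM in Chd3/4Δβ at a site 5.4 kb from its start, a log2 fold change of 3.54 ± 0.36 (SE, adjusted p = 4.2e-08), while Mir378d (5.43 ± 1.01 to 1.74 ± 0.381 CPM) and Mir1929 (4.31 ± 0.442 to 1.37 ± 0.486 CPM) lost accessibility. Zinc-finger genes of the Zfp family, many of which encode KRAB repressors, had 13 of 33 higher and 5 lower, against 8 and 6 under cyclic loess, from Zfp365 (0.106 ± 0.0801 to 3.55 ± 0.946 CPM) to Zfp809 (12.7 ± 0.964 to 4.68 ± 2.34 CPM), whose product represses retroviruses in mouse stem cells. Olfactory and vomeronasal receptor genes, best known from sensory neurons, had 10 of 37 higher and 9 lower, against 9 and 14 under both TMM and RLE and 3 and 10 under cyclic loess. The losses there included Or2t35 (4.41 ± 0.906 to 0.679 ± 0.589 CPM) and Or4a2 (7.78 ± 1.03 to 2.20 ± 1.63 CPM).

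Neighbouring members of a gene did not always move together. Of 657 genes with at least 2 members, 272 had at least 2 called, and these were all higher at 153, all lower at 34 and in both directions at 85. These counts are a description, to be read beside the 72.7% of all member calls that were higher. Unc5a, a netrin receptor gene, had a member 2.5 kb upstream with 2.84, 5.48, 3.16 and 3.13 CPM in Control and 0.863, 1.57 and 1.63 CPM in Chd3/4Δβ and another 7.6 kb upstream with 0.624, 0.163, 0.622 and 0.471 CPM in Control and 4.59, 4.16 and 2.81 CPM in Chd3/4Δβ, so the nearer site closed while the farther opened, by -1.46 and 3.03 on the log2 scale. Around Ccne1, which encodes the cell cycle protein cyclin E1, the member 4.8 kb upstream had 16.8, 15.8, 15.1 and 11.4 CPM in Control and 41.5, 41.1 and 50.2 CPM in Chd3/4Δβ and the one 3.8 kb downstream of the start had 5.62, 4.34, 4.59 and 5.02 CPM in Control and 0.659, 1.18 and 1.74 CPM in Chd3/4Δβ. The groups were fully apart at all 4 of these sites, as at most members (57.0% with Chd3/4Δβ above and 32.1% with it below). The upstream Ccne1 site alone passed 1 CPM in at least 3 libraries of each group, and the listing largely set the direction of the others. Gm28215 was 1 of 7 genes with 3 members called higher, with sites 2.5 and 8.0 kb upstream and 3.0 kb downstream that rose from 1.52 ± 0.396 to 4.06 ± 1.13 CPM, 2.01 ± 0.287 to 11.8 ± 4.33 CPM and 0.548 ± 0.225 to 5.63 ± 0.831 CPM. Ndufaf6, an assembly factor gene of mitochondrial complex I, had 3 sites upstream that all fell, by 2.00, 1.73 and 1.57 on the log2 scale. Within 2 kb of another member lay 505 members (8.28%).

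The promoter of the same gene was also listed for 893 members at 778 genes. Both values come from the same libraries, and across these members the log2 fold changes of member and promoter correlated at r = 0.14 (Spearman rho = 0.16), a description over sites that share libraries. Of 421 gained members in this set, the promoter was higher at 96 (22.8%), lower at 25 and not called at 300. Of 334 members with no call it was higher at 79 (23.7%), lower at 30 and not called at 225, and of all 6643 listed promoters 22.1% were higher and 8.94% lower, so promoters beside gains were higher at the share of promoters at large. Of 138 lost members the promoter was lower at 17 (12.3%), higher at 12 (8.70%) and not called at 109. Des, the gene for the muscle filament protein desmin, gained at a site 2.8 kb upstream (0.704 ± 0.364 to 5.73 ± 1.58 CPM) and at its promoter (log2 fold change 3.66). Cltc, the clathrin heavy chain gene, gained at a site 5.9 kb upstream (0.278 ± 0.116 to 4.48 ± 0.716 CPM) while its promoter was lower (-1.48), and Kpna6, an importin gene, showed the same contrast (0.368 ± 0.158 to 4.27 ± 1.58 CPM, promoter -1.12). These 3 genes were picked after their values were seen, from the pairs with the largest changes. Promoters listed beside gained, lost and uncalled members had median log2 fold changes of -0.26, -0.36 and -0.33, where the promoters of all listed regions had -0.31.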

How the data were processed

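ATAC-seq libraries of sorted Tomato-positive β cells were compared between Control (n = 4) and Chd3/4Δβ (n = 3). The authors deposited, for each of 61288 regions, the read count per library and the CPM, which is the count divided by 1 library size per library. The deposited p-value and FDR columns are the authors' comparison, and they were used only to find that 109675 regions had been tested and that an FDR under 0.05 and a CPM above 1 in at least 3 libraries decided which regions were listed. Fold changes of the authors and tables of overlaps with their gene expression were not used. Large fragments were excluded at library preparation, while for the aligner, peak caller, counter and Tn5 shift the methods are not given in the sources used here.

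GRCm39 is named in the submitters' processing notes. Coordinates were read as GRCm38, because the TSS implied by position and distance lay within 2000 bases of the RefSeq GRCm38.p6 start for 82.5% of 4387 members with a matched symbol. No genome of that build was used here, so sequences come from RefSeq start windows.

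Counts were fitted over the whole table with edgeR 4.0.16 in R 4.3.3 (robust quasi-likelihood test, genotype as the only term), with library sizes of 17.6 M to 44.0 M, taken as the ratio of deposited count to deposited CPM, and no further factor. These sizes are not whole numbers, so a scaling by the authors may already be in them. P-values were adjusted by Benjamini-Hochberg over 109675 regions. Because the table holds regions already called, p-values are conditional on that listing. Calls needed a log2 change of 1 or more in size together with an adjusted p under 0.05. Errors of a mean are SD over 4 and 3 libraries unless SE is written. The code was tested on simulated data with 200 changed regions.

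Alternatives were TMM, RLE and cyclic loess (limma 3.58.1) scaling, DESeq2 1.42.0, a stricter CPM minimum, a replicate block, a depth term, leaving out each library, no fold threshold, adjustment over listed regions and a limit of 5 kb. TMM, RLE and cyclic loess were estimated from the listed regions only, so they centre on changed regions. A restriction to members over 1 CPM in at least 3 libraries of each group was added after seeing the data. Members and gene lists were chosen with earlier results of these data known. Named members are the 8 largest gains and 8 largest losses above the median level whose groups do not overlap, the 6 highest in Control, all members of the lists of genes the study names, up to 3 called members per direction of every other list, the members nearest the 10 kb limit, and the genes with most called members. Some of these are not reported here and were not replaced. A lane tag stands in the column names of Control replicates 1 to 3, and a different lane tag in that of Chd3/4Δβ replicate 3. The other column names hold none. Neither tag is stated to be a batch. No tag is shared between the groups, so what the tags stand for cannot be fully told apart from genotype.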

Additional observations from a re-analysis of the deposited data

Results flagged for a closer look

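In 12 of the 155 named regions (7.74%), 1 Control library lay apart from the other Control libraries by Dixon's test for 4 samples, where chance gives about 1 in 20 groups. Control replicate 4 held 5 of these, replicate 3 held 4, replicate 2 held 2 and replicate 1 held 1. Groups of 3 were not tested, so this covers Control libraries alone.

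Control replicate 4, the deepest Control library, was high at neighbouring ribonuclease genes, with 134 CPM near Rnase12 (the others 107 to 109) and 145 CPM at Rnase4 (100.1 to 106). It was low near Sst at 0.825 CPM (1.59 to 1.74), 8.4 kb downstream of the Dlx3 start at 0.966 CPM (1.53 to 1.63) and near Gm45007 at 5.63 CPM (8.74 to 9.01). The call at Sst needs this library, as stated above. Members took 5.94% of the listed counts in replicate 4, against 6.28% to 6.35% in the other Control libraries, and 7.23% to 7.36% in Chd3/4Δβ.

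Control replicate 3 had 0.287 CPM near Kcnh3 (0.109 to 0.118), 0.239 CPM near Kcnh2 (0.651 to 0.683), 0.430 CPM near Tlx1 (0.814 to 0.851) and 2.44 CPM 8.0 kb upstream of Gm28215 (1.84 to 1.93). Control replicate 2 had 5.48 CPM 2.5 kb upstream of Unc5a (2.84 to 3.16) and 0.760 CPM near the olfactory receptor gene Or10ak11 (0.0956 to 0.170). Control replicate 1 had 7.998 CPM at the largest loss, the unnamed transcript on chromosome 1 (9.90 to 10.2). At the 10 called sites among these 12, each Chd3/4Δβ library still lay beyond every Control library. The same held at 2721 of the 2778 members called higher and 980 of the 1045 called lower.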

How the results depend on the processing

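No member was called in the opposite direction under any fit that was run, and the median over the members stayed above 0. The median was 0.64 under TMM, 0.53 under RLE, 0.43 under cyclic loess, 0.66 for the 4474 members over 2 CPM in at least 3 libraries and 0.52 for the 3313 members over 1 CPM in at least 3 libraries of each group. Members lower numbered 1681 under RLE and 2253 without a fold threshold, and members higher numbered 1777 under cyclic loess. Smaller sets gave 1787 higher and 686 lower (over 2 CPM), 916 and 367 (over 1 CPM in both groups) and 1269 and 451 (2739 members within 5 kb), with fewer members by construction. DESeq2 gave 2778 and 1043. Leaving out each library in turn gave 2732 to 2844 higher, 952 to 1185 lower and medians of 0.82 to 0.87.

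Cyclic loess turned the sign at 8 of the 155 named members, to 0.0562 at Shf, 0.13 at Kdm6b, 0.12 at Rnase12, 0.0765 at Rnase4, -0.12 at Chrne, -0.28 at Gdf9, -0.22 at Eef1a1 (8.2 kb upstream) and -0.38 at Zfp952, and took the call from 24 others. The cause was not tested.

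The replicate block gave 2762 higher, 1108 lower and a median of 0.83, and changed the call of 1 of the 155 named members, Sst (0.76). Same-numbered libraries shared only a number, since their deviations from the group means correlated at 0.07, -0.03 and -0.02, and of the Chd3/4Δβ libraries replicate 1 alone correlated best with its own number.

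Depth limits the weakest sites most, where a Control level rests on a few reads and the fold change is poorly known. The listing hides regions that did not differ, so unchanged sites cannot be counted, and genotype cannot be told apart from anything else that differed between the groups.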

Other observations

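Genes of axon guidance held members with large changes at weak sites. Unc5b, a netrin receptor gene, rose from 0.218 ± 0.0528 to 2.00 ± 0.603 CPM at a site 9.7 kb upstream, with 0.80 and no call under cyclic loess, and Sema4b, a semaphorin gene, rose from 0.643 ± 0.150 to 4.24 ± 0.457 CPM. Efna1, which encodes the ephrin A1 ligand, fell from 3.29 ± 0.465 to 1.14 ± 0.172 CPM. Near neurotransmitter receptor genes, a site upstream of Grm6, a glutamate receptor gene of the retina, rose from 1.11 ± 0.499 to 3.05 ± 0.435 CPM, and one upstream of the serotonin receptor subunit gene Htr3b fell from 2.36 ± 0.552 to 0.830 ± 0.429 CPM. All 5 sites had groups that did not overlap, as at most members (57.0% with Chd3/4Δβ above and 32.1% with it below). Each passed 1 CPM in at least 3 libraries of 1 group alone, so the listing largely set its direction.

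Some weaker sites near predicted genes closed almost fully. The levels were 1.70, 1.85, 2.77 and 1.41 CPM in Control and 0.0454, 0.0513 and 0.113 CPM in Chd3/4Δβ near Gm37230, 1.47, 4.07, 2.01 and 1.51 CPM in Control and 0.0227, 0.205 and 0.0563 CPM in Chd3/4Δβ near Gm14161 and 1.47, 1.57, 1.82 and 2.05 CPM in Control and 0.159, 0.128 and 0.113 CPM in Chd3/4Δβ near Gm47903. These sites were nearly closed in every Chd3/4Δβ library, replicate 3 included, unlike the losses near Ucn3 and Exo5, where replicate 3 kept part of the signal.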
